A study of Mus musculus with 6 samples.

Results

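The neuronal pentraxin genes Nptx1, Nptx2 and Nptxr were followed in RNA of the medial prefrontal cortex (mPFC) of mice after morphine-induced conditioned place preference (CPP), a test in which an animal comes to prefer the chamber it associates with the drug. The 3 genes were taken by name from a table of 31763 genes. They were chosen by their measured values in morphine against saline, so their differences between these groups are given as a description, with no test. The question of the comparison was how RNA of the mPFC differs after morphine-induced CPP.

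All animals were male C57BL/6J mice of 8 to 10 weeks. Mice of the morphine group (n = 3 libraries) had been given morphine at 10 mg/kg i.p. during CPP training, and mice of the saline group (n = 3 libraries) had been given saline at 10 ml/kg i.p. After about a week of withdrawal in the home cage the mice went through a retrieval test of CPP, and the tissue was collected right after it. The text does not say whether a library is 1 mouse, so p-values measure only the spread between these libraries, which may be technical in part.

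Neuronal pentraxins are synaptic proteins that gather AMPA receptors, the ionotropic glutamate receptors that carry most fast excitation in the brain. Nptx1 and Nptx2 are secreted, while Nptxr, the neuronal pentraxin receptor, is anchored in the membrane, and the 3 proteins assemble into mixed complexes that bind the outer part of AMPA receptor subunits. Nptx2, also called Narp, was found as an immediate early gene that is induced by neuronal activity, and its protein, made by excitatory neurons, strengthens excitatory synapses on parvalbumin interneurons. Nptx1 and Nptxr are expressed more steadily in pyramidal neurons.

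The members were located on GRCm38, which is the build mm10 of the deposited table, with the GENCODE annotation. Nptx1 lies at chr11:119538719-119547753 on the minus strand, Nptx2 at chr5:144545902-144557478 on the plus strand and Nptxr at chr15:79786351-79804766 on the minus strand. All are protein-coding genes, with 432, 429 and 493 codons. The annotated reading frame of Nptxr opens with CTG, whereas the other 2 frames open with ATG. The stretch that makes them 1 family is the pentraxin signature, a short motif around a cysteine and a tryptophan in the C-terminal domain. The 24 coding bases of this motif are shown for each gene, 5′ to 3′ on the coding strand, since they are what the family name rests on. The capitals mark the cysteine and tryptophan codons.
Nptx1: cacatcTGTgtcaccTGGaccacc
Nptx2: cacatcTGCatcaccTGGaccact
Nptxr: catatcTGCatctccTGGactaca
The Nptx1 stretch is at chr11:119543296-119543319, the Nptx2 stretch at chr5:144555339-144555362 and the Nptxr stretch at chr15:79790380-79790403. Each lies in exon 4 of 5. Nptx1 and Nptx2 share 21 of the 24 bases, Nptx2 and Nptxr share 20, and Nptx1 and Nptxr share 18.

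Counted reads came to between 17984153 and 23529592 per library, and every member was detected in all 6 libraries. The tissue was checked for excitatory neurons with 7 markers, all of which were detected. Their detection does not tell the mPFC from other tissue that holds such neurons. Saline library 1 stood apart. All 15 markers of the olfactory bulb, the structure just rostral to the mPFC, exceeded there 2 times their maximum over the remaining libraries, whereas 0 of 15 did so in each of the other 5. The summed level of these markers was 163 FPKM (fragments per kilobase of exon, scaled to library depth) in saline library 1 and 24.4 to 27.7 FPKM in the others. The summed level of the 7 excitatory neuron markers was 810 FPKM in this library and 955 to 1051 FPKM elsewhere. The part of these shifts in the members' values was not tested, and the members' differences between the groups are given with and without this library. In tissue RNA, fewer cells of a type and less RNA per cell cannot be told apart.

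Nptxr, the membrane-anchored member, was the most abundant of the 3 genes per length, Nptx1 came next and Nptx2 last. This order held in 6 of 6 libraries for each of the 3 pairs, and so in the 5 libraries other than saline library 1, for which the smallest p that the exact permutation test allows is 0.0625. An exact permutation test of the paired log2 FPKM differences (sign flips, two-sided) gave p = 0.03125 for each pair, which is the smallest value that 6 libraries allow, and 0.03125 after Benjamini-Hochberg adjustment over the 3 pairs. The level of Nptx1 was 0.442 to 0.565 of that of Nptxr, and the level of Nptx2 was 0.0884 to 0.123 of it. Among all 31763 genes ranked by mean FPKM, Nptxr was at rank 88, Nptx1 at rank 291 and Nptx2 at rank 2590, or 85, 275 and 2575 without saline library 1.

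**Figure D1:**
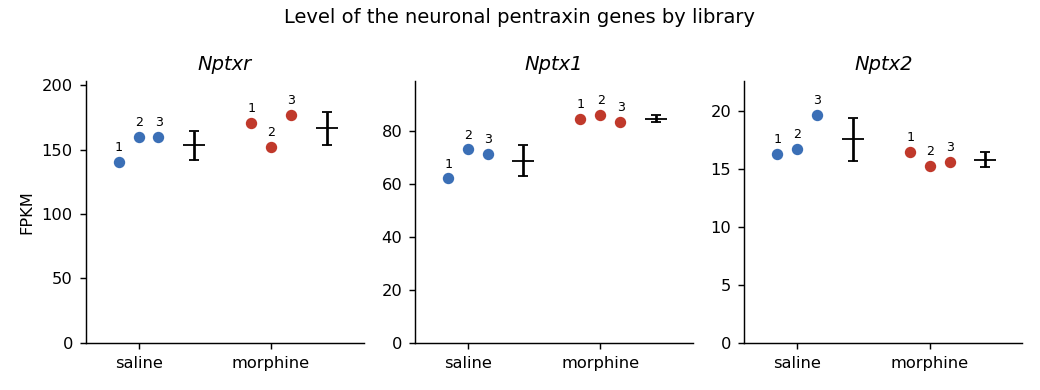
Level of each member in FPKM (vertical axis, linear from 0) by group, with 1 point per library marked with its replicate number and the mean and SD of the 3 libraries beside them. Nptx1 lies higher in every morphine library (83.3 to 86.0) than in every saline library (62.1 to 73.1), and the groups overlap for Nptxr and Nptx2.

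Nptx1, a secreted member, showed the clearest difference between the groups. It was at 62.1, 73.1 and 71.3 FPKM in saline libraries 1 to 3 and at 84.6, 86.0 and 83.3 FPKM in morphine libraries 1 to 3. The lowest morphine library was above the highest saline library, so the groups did not overlap, and saline library 1 was the lowest of all 6. The group means were 68.8 ± 5.89 and 84.6 ± 1.35 FPKM (SD, n = 3), or a log2 fold change in edgeR of 0.32 (standard error 0.07) and 1.25-fold. Without saline library 1 the log2 fold change was 0.24. Leaving out a library is no check of the separation, since it cannot make separated groups overlap. As a background for this separation, 5.98% of the 18970 tested genes did not overlap between the groups in depth-normalized counts (CPM) and were higher in morphine. Because Nptx1 was chosen by this contrast, nothing is read from its place among them.

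The 3 morphine libraries lay close together for Nptx1. Their CPM varied by 0.517% (coefficient of variation), against 9.61% over the saline libraries, while counting error alone gives 0.989 to 1.17% in a library for the 7269 to 10228 reads counted on the gene. The morphine spread was thus below the counting error, and the saline spread was well above it. In saline the SD of log2 CPM was 0.14 with saline library 1 and 0.030 without it. A spread over only 3 libraries can fall below the counting error by sampling, so nothing is read from the low morphine value.

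Nptx2, the activity-regulated secreted member, was at 16.3, 16.7 and 19.7 FPKM in saline libraries 1 to 3 and at 16.5, 15.3 and 15.6 FPKM in morphine libraries 1 to 3. Saline library 3 was the highest, and morphine library 1 lay between saline libraries 1 and 2, so the groups overlapped. The means were 17.6 ± 1.83 and 15.8 ± 0.642 FPKM (SD, n = 3), or a log2 fold change in edgeR of -0.13 (standard error 0.08) and 0.912-fold. This difference rested largely on saline library 3: without it the log2 fold change was -0.037, and without saline library 1 it was -0.19. Nptx2 had the fewest reads of the 3 genes, 696 to 974 per library, for which counting error alone gives 3.20 to 3.79%.

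Nptxr was at 141, 159 and 160 FPKM in saline libraries 1 to 3 and at 171, 152 and 177 FPKM in morphine libraries 1 to 3. Morphine library 2 was below saline libraries 2 and 3, so the groups overlapped, and saline library 1 was again the lowest. The means were 153 ± 11.1 and 167 ± 12.7 FPKM (SD, n = 3), or a log2 fold change in edgeR of 0.14 (standard error 0.08) and 1.10-fold. It was 0.074 without saline library 1, 0.087 without morphine library 3 and 0.21 without morphine library 2. With 14163 to 21490 reads per library, its counting error was 0.682 to 0.840%. The spread within groups of 8.24% in saline and 8.92% in morphine was far beyond it. The saline spread rested on saline library 1: the SD of log2 CPM in saline was 0.12 with it and 0.0034 without it.

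**Figure D2:**
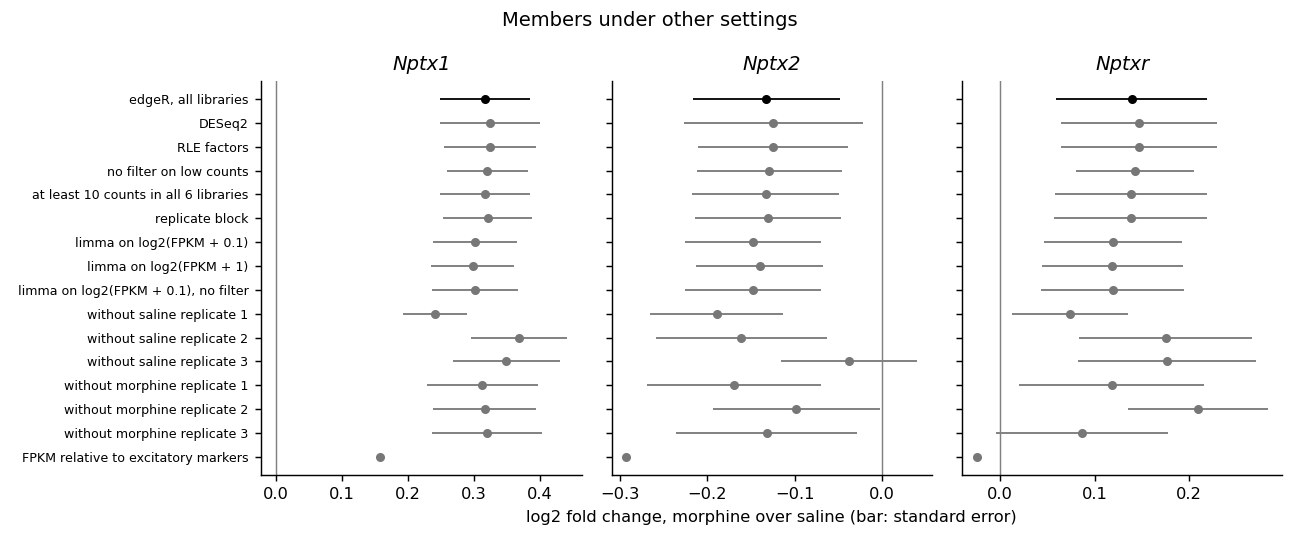
Log2 fold change of each member, morphine over saline (horizontal axis, with its own scale in each panel), in the edgeR fit on all libraries (black) and under each alternative (grey), where bars are standard errors and the value relative to excitatory markers has none. Nptx1 stays above 0 in every setting shown and Nptx2 below 0, while Nptxr is above 0 in all but the setting relative to excitatory markers.

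The spread between libraries of a group differed among the members and between the groups. For Nptx1 the SD of log2 CPM was 0.14 in saline and 0.0075 in morphine, and of the 908 genes within 2-fold of its level 84.8% had a smaller SD in saline but 1.32% in morphine. Over both groups it was 0.10, and 0.019 without saline library 1, so its spread rested on that library. For Nptxr the SD was 0.12 in saline and 0.13 in morphine, with 76.9% and 97.4% of the 346 genes of like level below it. Over both groups it was 0.13, and 0.11 without saline library 1, while in saline alone it fell to 0.0034 without that library. For Nptx2 the SD was 0.15 in saline and 0.072 in morphine, with 81.0% and 50.4% of the 4630 genes of like level below it. Over both groups it was 0.12, and 0.11 without saline library 1.

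A ratio of members within a library is free of its depth. The ratio of Nptx1 to Nptx2 FPKM was 3.81, 4.37 and 3.63 in saline libraries 1 to 3 and 5.13, 5.64 and 5.33 in morphine libraries 1 to 3. Every morphine library was above every saline library, with means of 3.94 ± 0.389 and 5.37 ± 0.257 (SD, n = 3), and saline library 1 was in the middle of its group. The ratio of Nptx1 to Nptxr was 0.442, 0.458 and 0.446 in saline and 0.496, 0.565 and 0.472 in morphine, again without overlap. The ratio of Nptx2 to Nptxr was 0.116, 0.105 and 0.123 in saline and 0.0968, 0.1002 and 0.0884 in morphine, lower in every morphine library. Leaving out saline library 1 is no check of these separations, since removing a library cannot make separated groups overlap. These ratios use the values by which the members were chosen and are likewise a description. The 3 ratios are built from the same values, so their separations do not add to each other. No share of other gene pairs that separate in this way is given here.

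**Figure D3:**
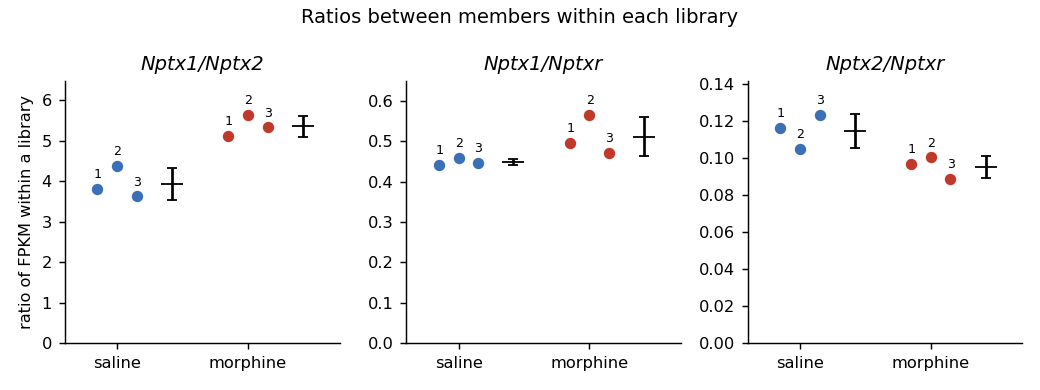
Ratio of FPKM between 2 members within each library (vertical axes, linear from 0, with their own scale in each panel), 1 point per library with its replicate number, and the mean and SD of 3 libraries. No panel shows an overlap of the groups: the ratios to Nptx1 are higher in morphine as Nptx1 over Nptx2 (5.13 to 5.64) and as Nptx1 over Nptxr (0.472 to 0.565), and Nptx2 over Nptxr is lower (0.0884 to 0.1002).

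As shares of the summed FPKM of the family, Nptx1 made up 28.4 to 29.3% in saline and 30.2 to 33.9% in morphine. Nptx2 made up 6.70 to 7.84% in saline and 5.67 to 6.08% in morphine. The share of Nptxr overlapped, at 63.7 to 64.2% in saline and 60.1 to 64.1% in morphine. Leaving out saline library 1 gave the same ranges for Nptx1 and Nptx2 and a saline range of 63.7 to 64.0% for Nptxr. The shares rest on the same values as the ratios and are likewise a description.

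The members are best known from excitatory neurons, whose markers also differed between the libraries. The summed FPKM of Slc17a7, Slc17a6, Camk2a, Neurod2, Neurod6, Tbr1 and Nrgn was 810, 993 and 955 in saline libraries 1 to 3 and 1051, 958 and 1029 in morphine libraries 1 to 3, with morphine library 2 between saline libraries 2 and 3. Of these 7 markers, 6 had a log2 fold change above 0, with a median of 0.14. Neurod6 and Neurod2, transcription factors of pyramidal neurons, were higher in morphine at an unadjusted p under 0.05, with log2 fold changes of 0.24 and 0.21, and of 0.18 and 0.15 without saline library 1. The 7 markers of upper layer pyramidal neurons were all above 0 with a median of 0.13, or 0.069 without saline library 1, and 0 of 7 had an unadjusted p under 0.05 (3 of 7 without morphine library 2). The 2 of lowest p were Rasgrf2 at 0.17 and Calb1 at 0.13, at 0.069 and 0.074 without saline library 1.

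Each member was then expressed as a percentage of the summed excitatory marker FPKM in its own library, a measure added after the data had been seen. Nptx1 stood at 7.67, 7.36 and 7.46% in saline libraries 1 to 3 and at 8.05, 8.98 and 8.10% in morphine libraries 1 to 3. The groups still did not overlap, and saline library 1 was no longer the lowest, but the difference between the groups was 0.16 on the log2 scale, against 0.32 in the edgeR fit. Nptx2 stood at 2.01, 1.68 and 2.06% in saline and at 1.57, 1.59 and 1.52% in morphine. On this scale its groups separated, with a log2 difference of -0.29. No share of all genes that separate on this scale is given here, so nothing is read from the separation. Nptxr stood at 17.4, 16.1 and 16.7% in saline and at 16.2, 15.9 and 17.2% in morphine, with a log2 difference of -0.025. Beside its SD within groups of 0.13 in log2 CPM this is near 0, so no direction is read from it. The sum of the markers rests mostly on Camk2a, Nrgn and Slc17a7, with saline means of 349, 265 and 234 FPKM. Each of the other markers averaged at most 25.2 FPKM in saline. The log2 differences relative to these markers were 0.17 for Nptx1, -0.25 for Nptx2 and 0.0025 for Nptxr without saline library 1. The part of the marker difference in the members' values was not tested.

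**Figure D4:**
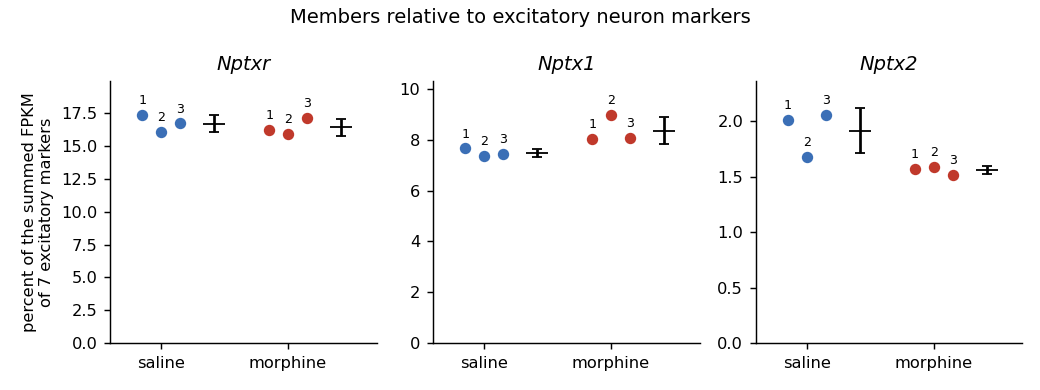
Level of each member as a percentage of the summed FPKM of 7 excitatory neuron markers in the same library (vertical axes, linear from 0), 1 point per library with its replicate number, and the mean and SD of 3 libraries. The morphine libraries lie higher for Nptx1 (8.05 to 8.98%), lower for Nptx2 (1.52 to 1.59%) and within the saline range or near it for Nptxr (15.9 to 17.2%).

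Across the 6 libraries, which share their groups, Nptx1 and Nptxr had a Pearson r of 0.745 in log2 CPM (Spearman rho of 0.543), and 0.359 without saline library 1. Nptx1 and Nptx2 had an r of -0.296 (rho of -0.371), and -0.791 without saline library 1. Nptx2 and Nptxr had an r of 0.133 (rho of 0.0857), and -0.038 without it. With 6 libraries in 2 groups these are descriptions only.

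Of 16677 genes with a mean of at least 1 CPM, those most like Nptx1 over the 6 libraries were Fbxl18 (Pearson r of 0.996), Grin1os (0.992), Tmem151b (0.991), Gm26723 (0.991) and Chn1os3 (0.989). None of these 5 was among the top 5 once saline library 1 was left out, although each r stayed at 0.971 or above. Nptx2 was most like Samd1 (0.992), Gm14412 (0.991), Gm43201 (0.989), Ccnyl1 (0.983) and Utp14a (0.977), of which Samd1 and Gm14412 remained in the top 5. Nptxr was most like Baalc (0.999), which remained, and Fbxo41 (0.996), Gm15609 (0.995), Cnih2 (0.993) and Mgat4b (0.992). Cnih2, a cornichon protein that binds AMPA receptors as an auxiliary subunit, was at 82.3, 90.4 and 90.5 CPM in saline and 93.6, 88.2 and 96.8 CPM in morphine. As with Nptxr, morphine library 2 lay below saline libraries 2 and 3. Cnih2 was named here for its likeness to Nptxr over these same libraries, so nothing is read from this match.

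In the fit on all libraries, the nearest tested protein-coding genes on either side of each member were nearer to 0 than that member. Because the members were chosen by this contrast, nothing is read from this. Around Nptx1, the neighbours were Endov, 27282 bp away with a log2 fold change of 0.060, and Rptor, 55152 bp away at 0.0054. Around Nptx2 they were Bri3, 99145 bp away at 0.094, and Tmem130, 178437 bp away at -0.042. The standard error was 0.10 for Bri3 and 0.08 for Nptx2, so their distances from 0 do not differ clearly. Around Nptxr the neighbours were Dnal4, 8502 bp away at -0.023, and Cbx6, 19130 bp away at 0.053. The groups overlapped for all 6 neighbours. Nptxr shares 890 exon bases with Npcd on the same strand, where reads of these genes cannot be told apart, and Npcd was not analysed here.

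Other genes were read from 17 lists of 188 genes, of which 178 passed the filter on low counts. Of these lists, 8 hold partners of the members and activity-regulated genes (110 tested), and 9 hold markers of cells or tissue (68 tested). None of the 178 passed an adjusted p of 0.05 in edgeR, nor did any of the 18970 tested genes (0%). At an unadjusted p under 0.05, 9 listed genes (5.06%) were higher and 23 (12.9%) lower in morphine, beside 2.77% higher and 4.96% lower of all tested genes. Without saline library 1 the balance turned, with 18 higher and 12 lower, and it was also 18 and 12 without morphine library 2. Over all genes, 2179 of 18671 had an unadjusted p under 0.05 without saline library 1. The number was 2039 of 18771 without morphine library 2 and 1465 of 18970 with all libraries. For the fits that leave out a library, these totals were not split by direction. Whether the turn is particular to the listed genes was thus not tested. Among the partners and activity-regulated genes alone, 4 were higher and 15 lower, or 6 and 11 without saline library 1 and 11 and 11 without morphine library 2. Among the markers, 5 were higher and 8 lower, of which 7 were olfactory bulb markers, and 12 were higher and 1 lower without saline library 1. At the same adjusted threshold, DESeq2 called 16 genes, of which 5 were listed: Btg2, Dusp1, Fos, Junb and Nr4a1. Without saline library 1, edgeR called 186 genes, of which 7 were listed: those 5 with Arc and Bcl11b.

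**Figure D5:**
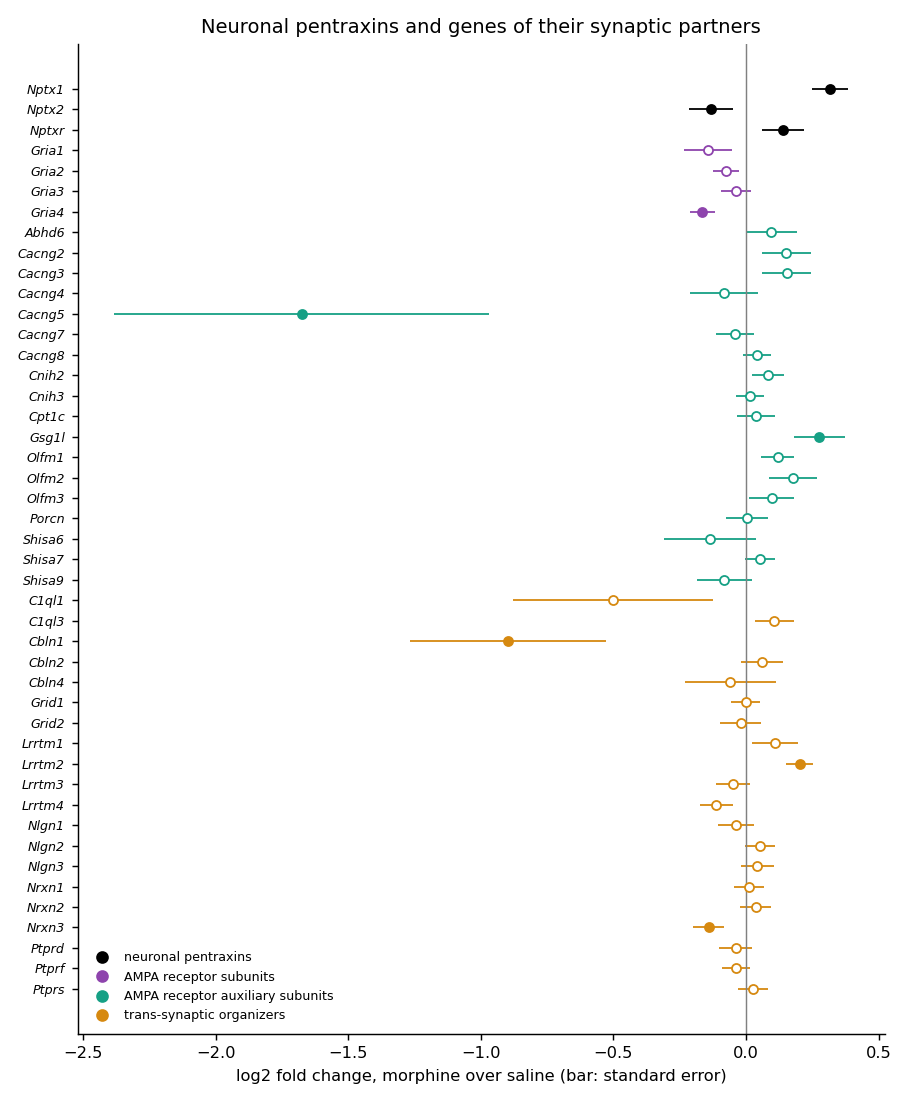
Log2 fold change, morphine over saline (horizontal axis), of the members (black), the AMPA receptor subunits, their auxiliary subunits and trans-synaptic organizers, with bars as standard errors. Among the non-members, filled points have an unadjusted p under 0.05 in edgeR and open points do not, and Cacng5 at -1.68 and Cbln1 at -0.90 lie far to the left, at 0.13 and -0.28 without saline library 1.

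The AMPA receptor subunits, to which the pentraxins bind, all had log2 fold changes below 0, with a median of -0.11 beside -0.0093 over all tested genes. Gria4, a subunit of fast-spiking interneurons that Nptx2 is known to gather, was at 177, 176 and 172 CPM in saline libraries 1 to 3 and at 162, 154 and 152 CPM in morphine libraries 1 to 3. Every morphine library was below every saline library, a separation that 7.32% of all tested genes showed in this direction. Its log2 fold change was -0.17 (standard error 0.05, unadjusted p = 0.0061 and adjusted p = 0.588 in edgeR), and its unadjusted p stayed under 0.05 in 14 of 14 alternatives, at -0.16 without saline library 1. Gria2 also did not overlap, at 970 to 1022 CPM in saline and 930 to 951 CPM in morphine, with a log2 fold change of -0.077. Gria1 was at -0.14 and Gria3 at -0.038, or at 0.015 without saline library 3. Gria1 was highest in saline library 1, at 573 CPM against at most 461 CPM elsewhere, and without that library its log2 fold change was -0.0091.

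Of 18 auxiliary subunits of AMPA receptors, an unadjusted p under 0.05 was reached by 1 gene higher and 1 gene lower in morphine, and the median was 0.047. These counts were 4 higher and 1 lower without saline library 2, and 4 and 0 without morphine library 2. They were 5 and 1 with no filter on low counts, and 0 and 0 without morphine library 1 or morphine library 3. Gsg1l was at 0.28 (standard error 0.10), with groups that overlapped, stood at 0.17 without saline library 1, and passed neither without morphine library 1 nor without morphine library 3. Cacng5 was at -1.68 (standard error 0.71) and at 0.13 without saline library 1, which held 49.8 CPM against at most 6.79 CPM elsewhere.

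Among 20 tested organizers that join the pre- and postsynaptic membrane, 1 was higher and 2 were lower, with a median of -0.011. Lrrtm2, a postsynaptic partner of neurexins that holds AMPA receptors in place, was at 104, 107 and 100 CPM in saline libraries 1 to 3 and at 118, 123 and 117 CPM in morphine libraries 1 to 3. Its groups did not overlap, a separation that 5.98% of all tested genes showed in this direction. The log2 fold change of Lrrtm2 was 0.20 (standard error 0.05, unadjusted p = 0.0025 and adjusted p = 0.573 in edgeR), and the unadjusted p stayed under 0.05 in 14 of 14 alternatives. Nrxn3, a presynaptic neurexin, was lower at -0.14, stood at -0.087 without saline library 1, and lost its unadjusted call without saline library 1, saline library 3, morphine library 2 or morphine library 3. Cbln1, a secreted organizer, was lower at -0.90 and stood at -0.28 without saline library 1.

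The proteases and regulators that can release Nptxr from the membrane showed 0 of 5 genes at an unadjusted p under 0.05, with a median of -0.064. The 2 of lowest p were Adam17, which encodes the protease TACE, at -0.12, and Rhbdf2 at -0.28. The median was 0.031, with 1 of 5 higher, and Adam17 was at -0.0099 without saline library 1. Complement genes of the classical pathway, whose first component binds neuronal pentraxins, showed 0 of 8 and a median of 0.021. C1qc was at 0.22, and at 0.11 without morphine library 1. C4b was at -0.54, with 22.1 CPM in saline library 1 and 5.99 to 9.66 CPM elsewhere, and at 0.23 without that library. There the median was 0.095 and 1 of 8 was higher.

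The other pentraxins, which serve innate immunity, were at the limit of detection. Crp had 1 read in 1 of the 6 libraries, Ptx3 had 0 to 3 reads per library and Ptx4 0 to 1, and none passed the filter on low counts. Apcs was not analysed here.

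Genes of parvalbumin interneurons and of the perineuronal net, the matrix in which Nptx2 gathers at these cells, showed 0 of 17 at an unadjusted p under 0.05, with a median of 0.015. This count moved with the setting: 4 were higher and 0 lower without saline library 2, and 0 and 1 without saline library 3. With DESeq2 the numbers were 1 and 0, and with no filter on low counts 2 and 1. Hapln4, a link protein of the net, was at 0.24, and Vcan, one of its proteoglycans, at -0.22, both with groups that overlapped. Saline library 1 was the lowest for Hapln4 and the highest for Vcan, and without it their log2 fold changes were 0.079 and 0.014.

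Activity-regulated genes, the class to which Nptx2 belongs, held 11 of the 23 lower calls. Of 38 genes, 11 had lower and 2 had higher levels in morphine at an unadjusted p under 0.05, with a median of -0.044. Of 13 immediate early transcription factors of the Fos, Jun, Egr, Nr4a and Npas4 families, 5 were lower, 1 was higher and 7 had no unadjusted p under 0.05, with log2 fold changes of -0.17 to 0.21 for these 7. The lower ones were at -0.64 for Nr4a1, -0.58 for Junb, -0.56 for Fos, -0.47 for Npas4 and -0.23 for Fosl2. Nr4a1 was at 76.9 to 93.4 CPM in saline and 50.3 to 59.2 CPM in morphine, with no overlap, a separation that 7.32% of all tested genes showed in this direction. Of 4 Dusp phosphatases, which end MAP kinase signalling, Dusp1 was lower at -0.78 and Dusp5 at -0.49, while Dusp4 was at 0.19 and Dusp6 at -0.061, both without an unadjusted p under 0.05. The other lower genes were Btg2 at -0.84, Ier2 at -0.59, the synaptic gene Arc at -0.56 and Tiparp at -0.32. The higher ones were Ier5 at 0.28 and the transcription factor Egr1 at 0.13. Of the 11 lower genes, 8 kept an unadjusted p under 0.05 in all 14 alternatives. Tiparp stood at -0.16 and Fosl2 at -0.13 without saline library 1. Npas4 lost the unadjusted call without saline library 3, Tiparp without saline library 1, morphine library 2 or morphine library 3, Fosl2 when any library but saline 2 was left out, and Egr1 when any but saline 3 was left out. Beside these, Nptx2 was at -0.13, with overlapping groups.

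Inhibitory neuron markers showed 0 of 9 higher and 1 lower, with a median of -0.13, which turned to 0.092 without saline library 1. The lower gene, Adarb2, was at 70.3 CPM in saline library 1 and 34.0 to 41.0 CPM elsewhere. Its log2 fold change was -0.52, and -0.20 without that library, and it lost its unadjusted call without morphine library 1 or morphine library 3. Of the 9 markers, 3 were lower at an unadjusted p under 0.05 without saline library 2 and 4 without saline library 3. The number was 0 without morphine library 1 or morphine library 3.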

How the data were processed

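RNA of 3 saline and 3 morphine libraries was analysed, grouped by the sample labels. The authors deposited, per gene and library, whole-number counts that are not normalized and FPKM values that scale these counts by exon length and library depth. Among the tools in the submitters' processing notes, with no roles given, are HISAT2 2.1.0, HTSeq 0.11.2, StringTie 1.3.3 and cutadapt 1.9.3, and the build is mm10. The strand option of the counter was not given in the sources used here.

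Genes reaching 10 counts in 3 or more libraries (18970) entered edgeR 4.0.16 (R 4.3.3), with TMM factors, a two-sided quasi-likelihood F test on the group term alone and Benjamini-Hochberg adjustment over all of them. The study's methods use a test without replicate spread, which edgeR replaced. Fold changes give morphine over saline, and CPM, or counts scaled to library size, uses the TMM factors. The script was tested on simulated data. Permutations used SciPy 1.17.1. Marker and partner lists came from general knowledge, 1 gene of the excitatory list is not reported here and was left out of its sums, and the members and lists were chosen with earlier results of these data known. Genes named are the members, all AMPA subunits and other pentraxins, listed genes at an unadjusted p under 0.05 (otherwise up to 2 of lowest p), the 5 genes most like each member, overlapping genes and the nearest tested coding genes. Bcl11b, Dusp4, Dusp6 and the summed excitatory markers were named outside this rule, after their values were seen. The settings tried were RLE factors, DESeq2 1.42.0, no filter, 10 counts in all 6 libraries, a replicate block, limma 3.58.1 on log2(FPKM + 0.1) and log2(FPKM + 1), each library left out, and, added after seeing the data, FPKM relative to excitatory markers and the spread without saline library 1. Replicate pairs differed by 2.91 to 14.7 times the chi-square degrees of freedom, so none was counted as a duplicate.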

Additional observations from a re-analysis of the deposited data

How the results depend on the processing

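Over 14 other settings the log2 fold change kept its direction for each member, between 0.24 and 0.37 for Nptx1, -0.19 and -0.037 for Nptx2 and 0.074 and 0.21 for Nptxr. Relative to summed excitatory markers it was 0.16, -0.29 and -0.025. Counts of listed genes at an unadjusted p under 0.05, 9 higher and 23 lower in edgeR, moved more: 15 lower with DESeq2, 13 lower with limma in each of its 3 settings, and 24 higher and 42 lower with no filter on low counts. Leaving out each library gave 5 to 19 higher and 10 to 35 lower, and turned the balance to 18 higher and 12 lower without saline library 1 and without morphine library 2. Over all genes, calls at an unadjusted p under 0.05 also rose, to 2179 of 18671 and 2039 of 18771 in these fits. Genes called at an adjusted p under 0.05, 0 of 18970 in edgeR beside 1465 at an unadjusted p under 0.05, came to 16 with DESeq2, 279 with no filter and 0 to 186 with a library left out, where 186 was without saline library 1. The cause of these shifts was not tested. Of the 32 listed genes at an unadjusted p under 0.05, 13 kept it in every alternative and 14 lost it without saline library 1. In that fit Cacng5 and the bulb markers Calb2, Cdhr1, Sp8 and Th changed direction. Sp8 kept an unadjusted p under 0.05 there with the opposite sign, at 0.61 against -2.44 with all libraries. With GENCODE exon lengths the ratios between members equalled those of the FPKM values. That setting is therefore no separate check of the order of the members per length.

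Same-numbered libraries did not deviate together (correlations of 0.0153, 0.00133 and -0.0211), which gave no sign that the numbers pair the samples. With 3 libraries a group, this check cannot exclude a small shared effect. With a replicate block the members were at 0.32, -0.13 and 0.14, with 7 listed genes higher and 19 lower and 0 called after adjustment.

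With 3 libraries a group, differences of the size seen in Nptx2 and Nptxr are about as large as the spread within groups. Depth limits Nptx2, at 696 to 974 reads per library, more than the other members, and counting intervals cover counting error only.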

Other observations

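Markers of deeper pyramidal neurons and of glia were also read. Of 8 tested markers of deep layer pyramidal neurons, 1 was higher in morphine at an unadjusted p under 0.05 in edgeR, Hs3st4 at a log2 fold change of 0.15, and the median was 0.013. Leaving out saline library 1 gave 3 of 8 higher and a median of 0.15, with Bcl11b called after adjustment. Of 7 astrocyte markers 1 was higher, Aldh1l1 at 0.17, with a median of -0.023, or 0.039 without saline library 1. Of 7 oligodendrocyte markers all lay above 0 with a median of 0.13, and 1 was higher, Opalin at 0.33. Without saline library 1 the median was 0.22 with 4 of 7 higher, and without morphine library 2 it was 0.0028 with 0 of 7. None of the 6 microglia markers and none of the 5 endothelial markers had an unadjusted p under 0.05, with medians of 0.016 and 0.080, or 0.028 and 0.050 without saline library 1. Hs3st4, Aldh1l1 and Opalin each lost the unadjusted call in at least 3 of the 6 fits that leave out a library.

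Of 12 tested olfactory bulb markers 7 were lower in morphine at an unadjusted p under 0.05, namely Doc2g, Cdhr1, Pbx3, Dlx2, Calb2, Th and Sp8, with a median over the 12 of -1.77, or 0.048 without saline library 1. Without saline library 1 the values of these 7 ran from -0.42 for Dlx2 to 0.61 for Sp8. In that fit 2 of the 12 markers, Sp8 among them, were higher at an unadjusted p under 0.05 and 0 were lower.

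Gm11762, a non-coding gene that starts 877 bp upstream of Nptx1 on the opposite strand and was looked at after its values were seen, averaged 3.08 ± 0.299 CPM over the saline libraries and 3.03 ± 1.09 CPM over the morphine libraries (SD, n = 3).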
